A study of Bos taurus with 56 samples.

Results

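The regions described here are the very broad open domains of early cattle development. ATAC-seq maps accessible DNA with a transposase that inserts adapters where chromatin is open, and an accessible stretch is called as a peak. A domain was formed from every peak of at least 3000 bp in any of 11 deposited peak lists, and overlapping peaks of this kind were joined. This gave 1674 domains from 2247 such peaks, out of 673059 peaks in all. When overlapping peaks of every width were joined across the lists, 482097 regions resulted, and 1667 of them (0.346%) held the domains.

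The labels placed 56 libraries of cattle oocytes and embryos in 11 groups. The oocytes either had a germinal vesicle (GV, 6 libraries) or had reached the second metaphase (MII, 5). Cleaving embryos were taken with 2 cells (6 libraries), 4 cells (6), 8 cells (5) and 16 cells (5). Morulae came without a further label (6) and as in vivo morulae (4), and so did blastocysts (3) and in vivo blastocysts (4), and the last group was the elongating embryo of day 14 (6). Oocytes or embryos were pooled for sequencing, and no group carried a label of a genotype or a drug. How the embryos without the in vivo label were produced is not stated.

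Open chromatin is rebuilt after fertilization while the embryo takes over from maternal transcripts. In cattle the main activation of the embryonic genome falls around the 8-cell and 16-cell stages. The morula then compacts, and the blastocyst separates an inner cell mass from the trophectoderm, which forms most of the elongating embryo before implantation. A broad accessible domain, as opposed to a narrow peak, can span several regulatory elements or a whole cluster of them.

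The authors merged the peaks of each group's libraries into 1 list, so there is 1 list per group and no spread between libraries. A peak in a list could therefore come from any number of its libraries. The lists held positions alone, with no read counts, and the depth behind them is unknown. No test between groups was possible, and every value here describes these lists. Peak widths in all 11 lists chose the domains, so the numbers of domains broad in each list follow from the rule and support nothing. List length, calling and merging moved together with the group, and their parts in the results cannot be told apart from that of the stage.

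The domains covered 6.60 Mb, or 0.248% of the 2661 Mb spanned by the lists. Their lengths ran from 3001 to 15367 bp with a median of 3578.5 bp, against a median width of 329 bp for all deposited peaks. There were 207 domains of at least 5000 bp and 9 of at least 10000 bp. Width did not fall off sharply at the limit used, since 346 peaks measured 2900 to 2999 bp and 295 measured 3000 to 3099 bp. The nearest peaks below it were 2999 bp wide, both of the 8-cell list, at chr27:32745297-32748295 and chr5:47899069-47902067. The nearest above it were 3 in vivo morula peaks of 3001 bp, on chromosomes 17, 19 and 22. One of these founded the domain at chr19:52861914-52864914, where the morula list had 2 peaks, the day 14 list had 3 and the other 8 lists had none.

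Most domains reached 3000 bp in a single group. A list was said to found a domain when it held a peak of at least 3000 bp there, and such a domain is called broad in that list. Founding by 1 list applied to 1303 domains (77.8%), by 2 lists to 261, by 3 to 73, by 4 to 23 and by 5 or more to 14. The morula list alone founded 587, the day 14 list alone 351, the in vivo morula list alone 168, the 8-cell list alone 145 and the 16-cell list alone 46. The pair of morula lists shared 151 that no other list founded.

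Although few were broad in more than 1 list, most domains held some peak in several lists. A peak was present in 5 lists for 705 domains (42.1%) and in 4 lists for 395 (23.6%). The usual combination was the 8-cell, 16-cell, morula, in vivo morula and day 14 lists. Exactly these 5 and no other had a peak in 682 domains (40.7%). They were also the 5 lists with over 50000 peaks. The share of all joined regions or of slightly narrower ones with this combination was not measured. At the extremes, 72 domains had a peak in 1 list only and 17 had one in all 11.

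**Figure D1:**
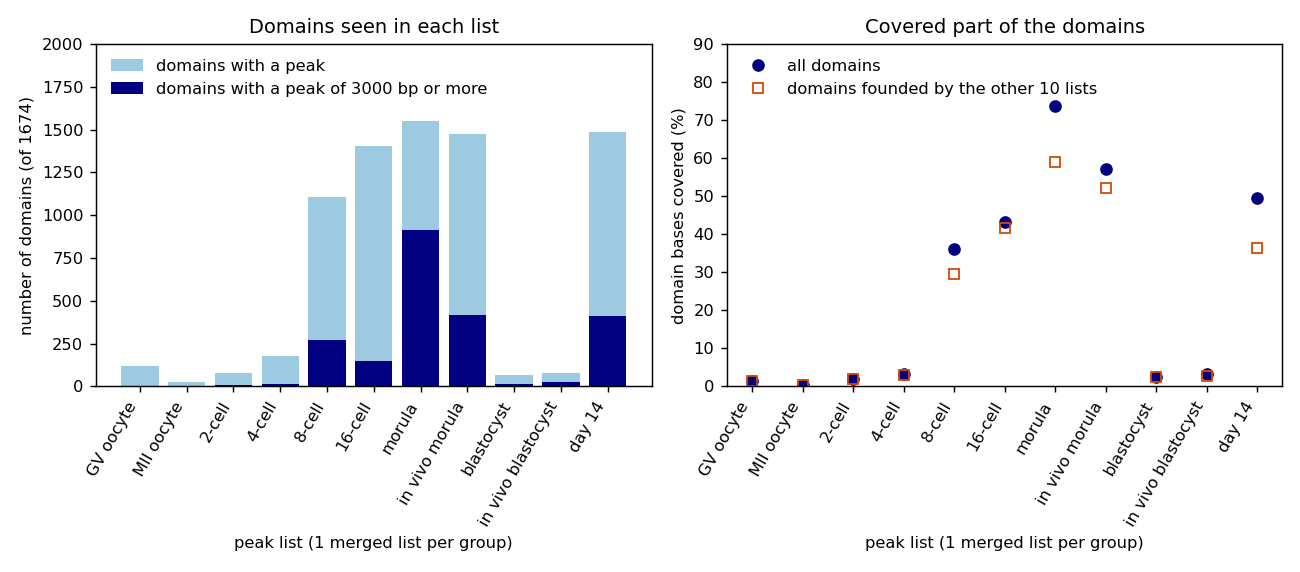
Left, number of domains (of 1674) with any peak (light bars) and with a peak of 3000 bp or more (dark bars) in each of the 11 merged lists. Right, percentage of domain bases covered by each list, over all domains (filled circles) and over the domains founded by the other 10 lists (open squares). The morula list covers most on both measures, and the oocyte, 2-cell, 4-cell and blastocyst lists cover under 4%.

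The oocyte and earliest embryo lists held few of the domains. In the GV oocyte list 121 domains (7.23%, 95% Clopper-Pearson interval 6.03 to 8.58, counting error only) had a peak, while 0.887% of all joined regions did. For MII oocytes it was 24 domains (1.43%), against 0.147% of all joined regions. The 2-cell list had a peak in 80 domains (4.78%, against 0.523%) and the 4-cell list in 180 (10.8%, against 1.17%). These lists were also short, with 730 to 5810 peaks each. What they did hold was mostly narrow, since the median widest peak per domain was 413.0 bp in GV oocytes, 485.0 bp in MII oocytes, 679.0 bp at the 2-cell stage and 509.0 bp at the 4-cell stage. Broad peaks were present in 5, 0, 8 and 16 domains, in the same order.

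From the 8-cell to the morula stage the domains were found in most cases. The 8-cell list had a peak in 1105 domains (66.0%, against 11.6% of all joined regions), the 16-cell list in 1403 (83.8%, against 14.5%) and the morula list in 1550 (92.6%, against 17.5%). In vivo morulae had a peak in 1475 (88.1%, against 11.1%). The 8-cell list was the first long list, after 4 short ones. Leaving the in vivo lists aside, the 8-cell list was the first with a peak in 861 domains (51.4%), the 16-cell list in 312, the morula list in 138, the GV oocyte list in 121 and the 4-cell list in 102. The 8-cell list was also the first with a peak in 49.7% of the regions whose widest peak measured 2000 to 2999 bp, and in 10.9% of all joined regions.

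Both blastocyst lists lacked nearly all of the domains. The blastocyst list had a peak in 66 (3.94%, interval 3.06 to 4.99, against 0.628% of all joined regions), and the in vivo blastocyst list in 81 (4.84%, interval 3.86 to 5.98, against 0.509%). At day 14 a peak was present in 1487 domains (88.8%), but this list also had a peak in 75.0% of all joined regions. The 3 lists differed in length by far, with 3397, 2587 and 372509 peaks.

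A joined region with a wide peak is longer than an average region and overlaps peaks of other lists more easily. The regions just under the limit, whose widest peak measured 2000 to 2999 bp (5375 regions), are therefore the closer comparison. They had a peak in 59.4% at the 8-cell stage, 76.2% at the 16-cell stage, 87.6% at the morula stage and 79.9% in in vivo morulae. In the GV oocyte, MII oocyte, 2-cell and 4-cell lists the shares were 5.13%, 0.540%, 2.44% and 7.01%, and in the blastocyst and in vivo blastocyst lists 1.88% and 2.55%. At day 14 the share was 82.8%. The domains stood above this class in all 11 lists. The difference was 4.96 to 8.17 percentage points in the 5 lists with over 50000 peaks and 0.894 to 3.74 in the 6 short ones. Domains hold wider peaks by choice, and a founding list has a peak by construction. Over domains founded by other lists, the share was 62.8% at the 8-cell stage, 83.4% at the 16-cell stage and 88.7% in morulae. It was 86.8% in in vivo morulae and 85.9% at day 14. The class was not measured in this way, so the difference is not shown to be particular to the domains.

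Coverage by base followed the same course. The peaks of the GV oocyte, MII oocyte, 2-cell and 4-cell lists covered 1.46%, 0.300%, 1.97% and 3.23% of domain bases. The 8-cell list covered 36.0%, the 16-cell list 43.2%, the morula list 73.8% and the in vivo morula list 57.1%. Blastocysts and in vivo blastocysts were at 2.58% and 3.14%, and day 14 embryos at 49.4%. A list that founds a domain covers it by construction, so each list was also measured over the domains founded by the other 10 lists. Coverage was then 29.5% at the 8-cell stage, 41.5% at the 16-cell stage, 59.0% in morulae, 52.1% in in vivo morulae and 36.5% at day 14. The 6 short lists covered 0.300% to 3.09%, and the morula list remained the highest.

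This order depended on how peaks were joined. When peaks of a list less than 500 bp apart were joined before widths were measured, 6197 domains resulted. The day 14 list then founded 3799 of them and covered 72.9% of their bases, while the morula list founded 1764 and covered 41.4%. The day 14 list had the narrowest median peak of the lists used as deposited, 216.0 bp, against 525.0 bp in morulae.

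The domains held different parts of each list. Of all bases in the blastocyst and in vivo blastocyst lists, 13.5% and 14.1% lay in the domains, followed by 11.3% in the 2-cell, 8.86% in the in vivo morula and 8.01% in the 4-cell list. It was 7.41% in the morula, 7.18% in the MII oocyte, 6.82% in the 16-cell, 6.45% in the 8-cell, 5.11% in the GV oocyte and 2.63% in the day 14 list.

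**Figure D2:**
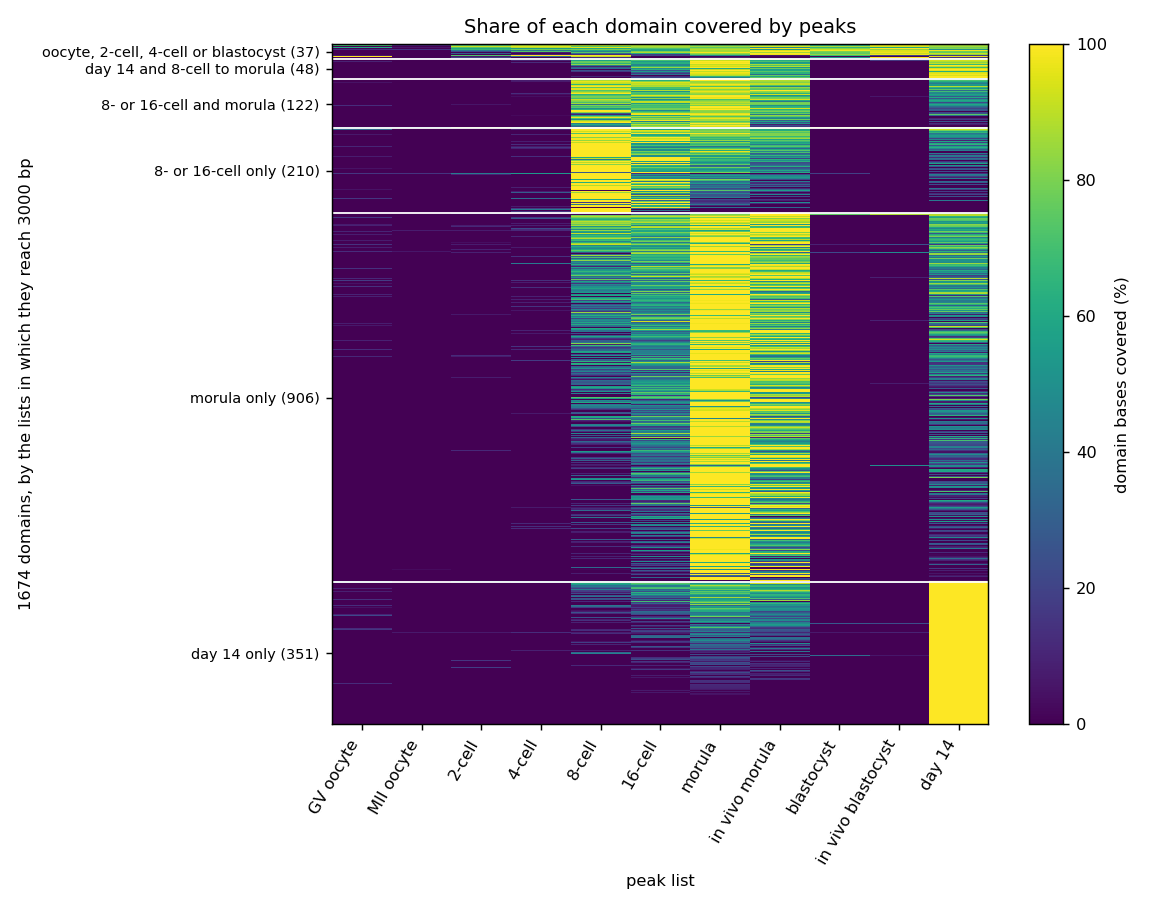
Share of each domain (rows, 1674) covered by peaks in each list (columns), from 0 (dark) to 100% (yellow). Rows are grouped by the lists in which the domain reaches 3000 bp, with the number of domains in brackets, and "morula" stands for either morula list. Columns of the oocyte, 2-cell, 4-cell and blastocyst lists are mostly dark outside the top group of 37 domains.

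Classes of domains set by where they were broad differed in how the other lists looked. In the 906 domains broad in a morula list only, 596 (65.8%) had a peak in every list from 8 cells to the morula, and 798 (88.1%) had a day 14 peak. Both were near the shares of all domains, 61.1% and 88.8%, and a peak in at least 1 morula list is given by the choice of the class. The 351 domains broad at day 14 only had earlier peaks less often than all domains. This goes with the choice of the class, in which no earlier list can be broad. Of these, 246 (70.1%) had a morula peak, 171 (48.7%) a 16-cell peak and 103 (29.3%) an 8-cell peak. The shares of all domains were 92.6%, 83.8% and 66.0%, and those of all joined regions 17.5%, 14.5% and 11.6%. No peak in any other list was found for 71 of the 351 (20.2%). Leaving the in vivo lists aside, day 14 was the first list with a peak in 5.08% of all domains and 63.8% of all joined regions. The median widest peak in them was 960.0 bp at the morula and 680.0 bp at the 8-cell stage. Domains broad at the 8-cell or 16-cell stage only numbered 210, and those broad there and in a morula list numbered 122. A further 48 were broad at day 14 and in a list from the 8-cell to the morula stage.

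The steps between consecutive stages were followed by whether a domain kept a peak. From GV to MII oocytes 19 of 121 domains (15.7%) kept one, against 3.06% of all joined regions with a GV peak. From MII oocytes to the 2-cell stage 21 of 24 kept one (87.5%, against 21.6%), and from the 2-cell to the 4-cell stage 52 of 80 (65.0%, against 25.2%). The 4-cell to 8-cell step kept 171 of 180 (95.0%, against 34.3%) and 934 further domains had a peak at the 8-cell stage without one at the 4-cell stage. In the regions just under the limit these 4 steps kept 7.25%, 86.2%, 66.4% and 91.0%, so after the GV to MII step the domains and the slightly narrower regions differed by 1.29, -1.41 and 4.02 percentage points (domains minus narrower regions).

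Between the 8-cell and morula stages nearly all domains with a peak in one list had one in the next, at any place inside the domain. From the 8-cell to the 16-cell stage 1078 of 1105 domains (97.6%, against 45.0% of all joined regions) kept a peak, and from the 16-cell stage to the morula 1378 of 1403 (98.2%, against 45.7%). The regions just under the limit kept 95.2% and 96.2%. Widths chose the domains, so the widths at these steps are a description. From 8 to 16 cells the widest peak was at least 1.5 times wider in 312 domains and at least 1.5 times narrower in 265, with a median ratio of 1.04. From 16 cells to the morula it was at least 1.5 times wider in 931 and narrower in 86, with a median ratio of 2.08. The morula list founded 915 domains and the 16-cell list 150, which favours wider morula peaks by construction. Over the domains founded by lists other than the pair compared, an alternative chosen after seeing the data, the median ratio was 1.10 from 8 to 16 cells (876 domains with a peak in both) and 1.69 from 16 cells to the morula (776).

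Splitting was followed by the number of peaks inside a domain. Of the domains with a 16-cell peak, 847 (60.4%) had 2 or more, compared with 479 (43.3%) at the 8-cell stage and 412 (26.6%) at the morula stage. Over domains founded by the other 10 lists the shares were 62.4%, 49.8% and 42.6%. The morula share thus moved most when domains founded by that list alone were left out. Of the 270 domains broad at the 8-cell stage, 58 were still broad at the 16-cell stage, 59 had 1 narrower peak, 150 had 2 or more narrower peaks and 3 had none. Since 145 of the 270 were founded by the 8-cell list alone and could not be broad elsewhere, these counts follow in part from the rule. Of the 832 domains broad in morulae but not at the 16-cell stage, 546 had 2 or more 16-cell peaks, 227 had 1 and 59 had none.

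The course through the 16-cell stage was also followed in domains broad on both sides of it, a choice that by itself favours narrower peaks in between. Of these 93 domains, broad at both the 8-cell and morula stages, 38 were broad at the 16-cell stage, 55 were narrower there, 45 of these as 2 or more pieces, and none lacked a peak. The median peak width of the whole 16-cell list was 409.0 bp, against 458.0 bp at the 8-cell stage and 525.0 bp in morulae. The part of calling or depth in this was not tested.

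**Figure D3:**
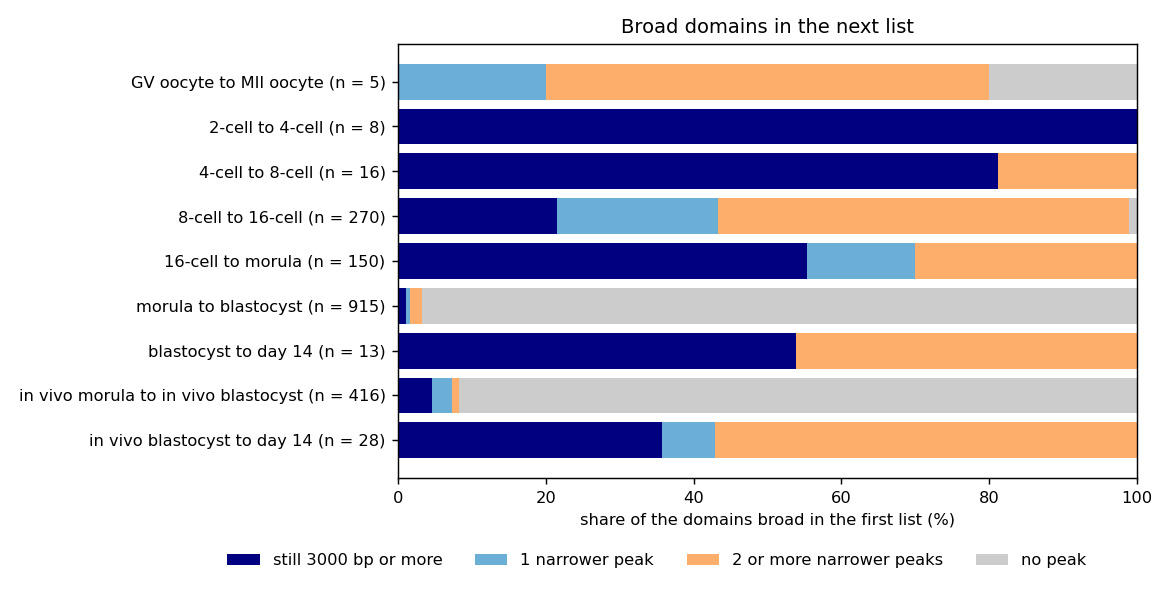
Domains that were broad (3000 bp or more) in the first list of each step, by their state in the second list, as a percentage of the number given on the axis. The 8-cell to 16-cell bar is mostly 2 or more narrower peaks, and the bars from morula to blastocyst are mostly without a peak.

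The morula to blastocyst step was the one at which the domains went missing from the lists. Of 1550 domains with a morula peak, 58 (3.74%) had a blastocyst peak, against 1.11% of all joined regions with a morula peak and 1.97% of the regions just under the limit. From in vivo morulae to in vivo blastocysts it was 79 of 1475 (5.36%, against 1.56% and 3.05%). Of the 915 domains broad in morulae, 9 were broad in blastocysts, 5 had 1 narrower peak, 15 had 2 or more and 886 had none. Of the 416 broad in in vivo morulae, 19 were broad in in vivo blastocysts and 382 had no peak. The whole list shortened as well. Covered bases in the domains were 0.0349 times those of the morula list at the blastocyst stage, and covered bases over the whole list were 0.0191 times as many. The corresponding ratios of the in vivo lists were 0.0550 and 0.0345. Whether chromatin closed or peaks were not called cannot be told apart without read counts.

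All of the domains seen in blastocysts had a peak at day 14. This was 66 of 66 for the blastocyst list (against 56.7% of all joined regions with a blastocyst peak) and 81 of 81 for the in vivo blastocyst list (against 45.5%). The regions just under the limit came to 96.0% and 95.6%. Of the 13 domains broad in blastocysts, 7 were broad at day 14, and of the 28 broad in in vivo blastocysts, 10 were. Of the 404 domains broad at day 14 and not in the blastocyst list, 384 (95.0%) had no blastocyst peak, near the 96.1% of all 1674 domains.

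The lists labelled in vivo held most of the domains of the unlabelled lists of their stage, with other widths. Of the 1550 domains with a morula peak, 1450 (93.5%, against 38.1% of all joined regions with a morula peak) had an in vivo morula peak, and 25 had one in the in vivo list alone. The regions just under the width limit kept a peak in 89.3%. The widest in vivo peak was at least 1.5 times narrower in 699 of these 1450 and wider in 151, with a median ratio of 0.690. The morula list alone founded 587 domains and the in vivo list alone 168, which favours this direction by construction. Over domains founded by lists other than the pair, the median ratio was 0.792 (561 domains with a peak in both), with 221 at least 1.5 times narrower in vivo and 55 wider. Of the 915 domains broad in morulae, 233 were broad in in vivo morulae, 424 were in 2 or more narrower pieces and 13 had none. Median peak widths of the 2 whole lists were 551.0 bp in vivo and 525.0 bp without the label. Covered bases in the domains were 0.773 times those of the morula list, while over the whole lists the ratio was 0.647. For blastocysts, 60 of 66 domains (90.9%, against 27.6% of all joined regions and 87.1% of the regions just under the limit) had an in vivo peak. Covered bases in the domains were 1.22 times as many in vivo (1.17 over the whole lists). That ratio turned to 0.974 when peaks under 500 bp apart were joined first.

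**Figure D4:**
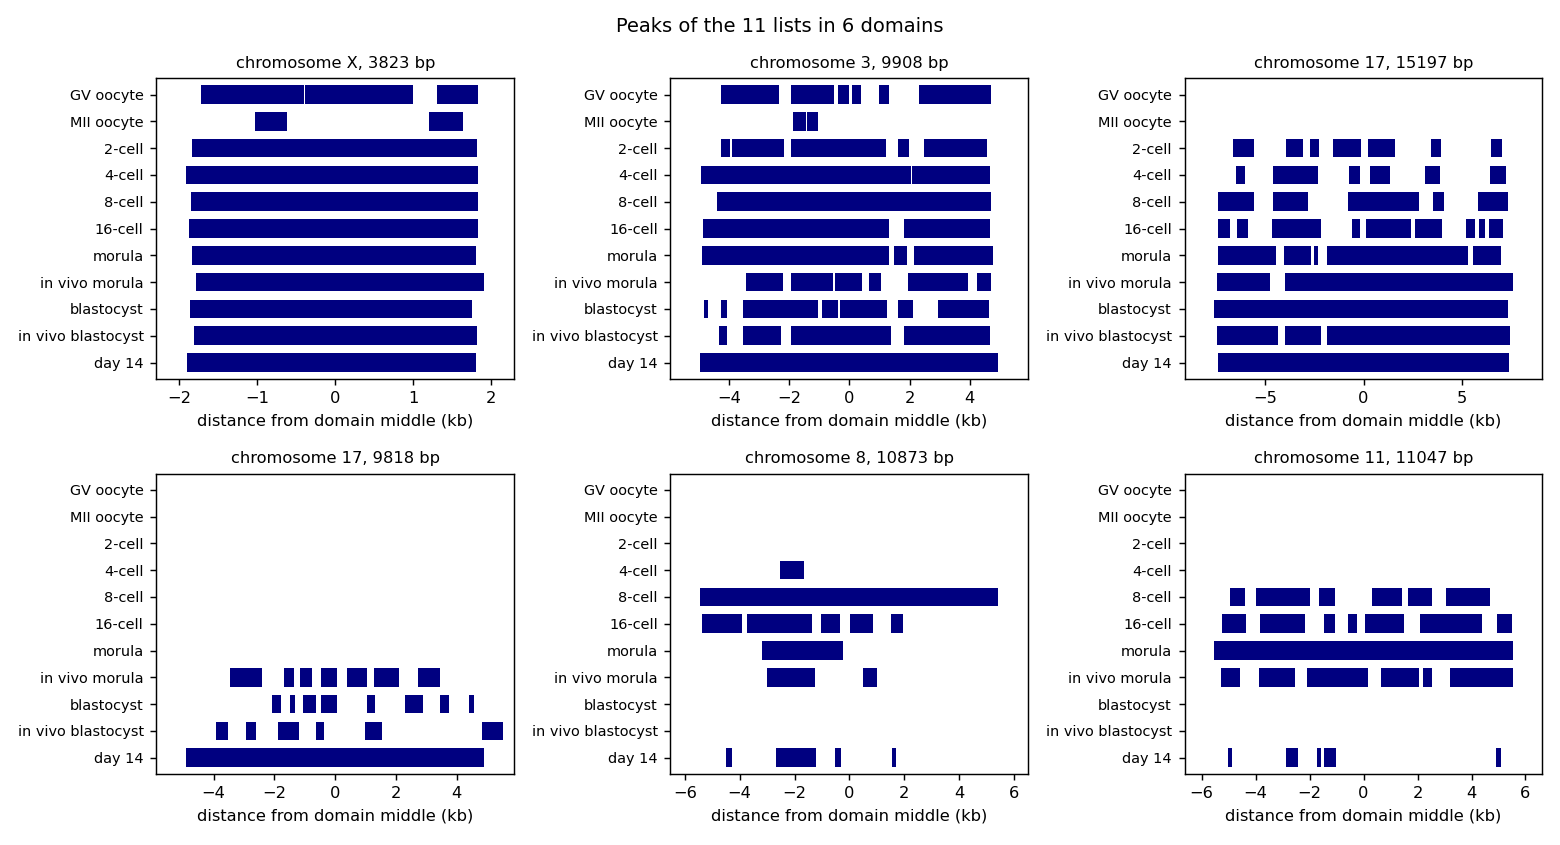
Peaks of the 11 lists (bars) along 6 domains, by distance from the domain middle in kb. The X domain has near-identical bars from the 2-cell stage on, the chromosome 3 and first chromosome 17 domains split and join across stages, and the last 3 are wide in the day 14, 8-cell and morula list respectively.

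The longest domain, at chr8:98839124-98854490 (15367 bp), was broad in the 8-cell and both morula lists. Its covered bases were 7339 at the 8-cell stage in 3 peaks, 8556 at the 16-cell stage in 6 peaks, 14196 in morulae in 6 peaks and 14190 in in vivo morulae in 3 peaks. The widest peak in it measured 5746, 2720, 9166 and 6223 bp, in the same order. No oocyte, 2-cell, 4-cell or blastocyst list had a peak in it, and the day 14 list had 6 peaks covering 3573 bp. It showed the largest fall in covered bases of any domain from morula to blastocyst, in both pairs of lists.

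Domains at chr8:91595167-91607949 (12783 bp) and chr15:34209909-34222766 (12858 bp) had a like course. In the first, coverage was 273 bp at the 4-cell stage, 8719 bp at the 8-cell stage, 8878 bp at the 16-cell stage, 12702 bp in morulae and 10500 bp in in vivo morulae, and 2111 bp at day 14. In the second the values were 305, 6717, 7465, 11276, 10783 and 4407 bp. Both were without oocyte, 2-cell or blastocyst peaks.

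The widest peak of the morula list spanned the domain at chr11:49963246-49974292 (11047 bp) as 1 unbroken stretch. The same bases held 6 peaks at the 8-cell stage (6831 bp), 7 at the 16-cell stage (7642 bp) and 6 in in vivo morulae (8416 bp), with no piece over 2332 bp. At day 14 5 peaks covered 1311 bp. This is the pattern of several narrow peaks beside 1 broad one that was counted in 546 domains above.

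Some domains were widest at the 8-cell stage. At chr8:80832687-80843559 (10873 bp) the 4-cell list had 1 peak of 873 bp, and the 8-cell list had 1 peak over the whole domain. The 16-cell list then had 5 peaks covering 5743 bp, the morula list 1 of 2967 bp, the in vivo morula list 2 covering 2236 bp, and the day 14 list 4 covering 2061 bp. It showed the largest gain in covered bases from 4 to 8 cells.

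The domain at chr16:7093000-7104258 (11259 bp) was also widest at the 8-cell stage, with a peak of 10229 bp. Coverage was 300 bp at the 2-cell stage, 1578 bp at the 4-cell stage, 10614 bp at the 8-cell stage, 7494 bp at the 16-cell stage, 8519 bp in morulae, 5449 bp in in vivo morulae and 4680 bp at day 14. Both blastocyst lists had peaks in it, over 202 bp and, in vivo, over 1110 bp. At chr18:57709432-57717387 (7956 bp), the 8-cell list had 1 peak of 7951 bp, the 16-cell list 3 peaks covering 2491 bp, and the day 14 list 2 peaks covering 7180 bp. This was the largest fall from 8 to 16 cells.

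The most divided domain lay at chr17:18894809-18906851 (12043 bp), where the 16-cell list had 11 peaks covering 6544 bp. The 8-cell list had 8 peaks there (8744 bp), the morula list 5 (6637 bp), the in vivo morula list 5 (8845 bp) and the day 14 list 3 (756 bp). The widest piece measured 5141 bp at the 8-cell stage and 1902 bp at the 16-cell stage.

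Other domains were little covered before the 16-cell stage or the morula. At chr6:73605601-73614267 (8667 bp) coverage was 367 bp at the 8-cell stage, 5934 bp at the 16-cell stage in 5 peaks and 8639 bp in morulae in 1 peak, and it was 6769 bp in in vivo morulae and 1241 bp at day 14. At chr3:102942088-102948246 (6159 bp) the 16-cell list had 1 peak of 211 bp, the morula list covered the whole, and the in vivo morula list covered 2325 bp in 3 pieces. These were the largest gains of the 8-cell to 16-cell and the 16-cell to morula steps. In the opposite direction, the domain at chr3:37344952-37352447 (7496 bp) was covered over 6972 bp at the 8-cell stage and 7151 bp at the 16-cell stage. The morula list covered 1342 bp of it, the in vivo morula list none and the day 14 list 561 bp.

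The morula lists differed most at chr12:58059871-58069049 (9179 bp). The 8-cell list covered 4054 bp of it in 3 peaks, the 16-cell list 7203 bp in 1 peak and the morula list all 9179 bp in 1 peak. In in vivo morulae 3 peaks covered 2209 bp, and neither the blastocyst lists nor the day 14 list had a peak there.

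At day 14 the largest gain over both blastocyst lists was at chr22:60020261-60028088 (7828 bp). The day 14 list covered it in 1 peak. Only the morula list (431 bp) and the in vivo morula list (669 bp) had another peak in it.

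Chromosome 17 held the domains with the widest peaks of 4 lists. The domain at chr17:25029576-25044772 (15197 bp) had no oocyte peak. Its coverage was 6183 bp at the 2-cell stage in 7 peaks, 5944 bp at the 4-cell stage in 6, 9246 bp at the 8-cell stage in 5 and 9240 bp at the 16-cell stage in 10. In morulae it was 13076 bp in 5 peaks, in in vivo morulae 14301 bp in 2, in blastocysts 14956 bp in 1, in in vivo blastocysts 14319 bp in 3 and at day 14 14806 bp in 1. Coverage was thus higher in each list from the morula on than in any list before it, and both blastocyst lists still covered nearly the whole domain. It held the widest peak of the in vivo morula (11608 bp), blastocyst (14956 bp) and day 14 (14806 bp) lists.

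Next to it lay 4 further domains broad at day 14, which ended at position 25126129. The largest, at chr17:25112953-25122770 (9818 bp), was 1 peak at day 14. In vivo morulae had 7 peaks over 4566 bp of it, blastocysts 8 over 2724 bp and in vivo blastocysts 6 over 2305 bp, while no list from GV oocyte to morula had any. All 5 domains of this run, within 96.6 kb, were broad at day 14 and had peaks in both blastocyst lists, and 1 of them had a 2-cell peak.

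A second run on the same chromosome began at position 50839859 and ended at 51631306. The domain at chr17:50865693-50875751 (10059 bp) was covered entirely by the widest in vivo blastocyst peak. Coverage was 6085 bp at the 2-cell stage, 5592 bp at the 4-cell stage, 5995 bp at the 8-cell stage, 7240 bp at the 16-cell stage, 8431 bp in morulae, 9877 bp in in vivo morulae, 8186 bp in blastocysts and 8162 bp at day 14. At chr17:50909479-50915752 (6274 bp) the values ran from 4501 bp at the 2-cell stage to 6274 bp in in vivo morulae, with a single peak in the 8-cell, both morula, both blastocyst and day 14 lists. At chr17:50928768-50936590 (7823 bp), broad in 8 lists, they ran from 4619 bp at the 8-cell stage to 7563 bp in in vivo blastocysts. The oocyte lists had no peak in any domain of either run, but this also held for 1548 of all 1674 domains (92.5%).

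Chromosome 17 stood out among domains present in all embryo lists. A peak in all 9 embryo lists was found for 42 domains, of which 17 had none in either oocyte list, and 12 of these 17 (70.6%) lay on chromosome 17. Of the joined regions with the same pattern, 23 of 95 (24.2%) were on this chromosome, which held 2.98% of all joined regions and 64 domains (3.82%). Another 17 of the 42 had a peak in both oocyte lists, and none of these was on chromosome 17. Among joined regions with a peak in all 11 lists, 2 of 105 (1.90%) were, so this absence is near the general share. Of the 12, 10 lay in the pair of runs just described, so they are neighbours and not separate cases.

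The 14 domains broad in 5 or more lists fell into the same 2 kinds. In 9 of them all 11 lists had a peak. The other 5 were on chromosome 17 and had a peak in the 9 embryo lists and in no oocyte list. Of the 14, 3 lay on X. Their median length was 4748.0 bp, and their bases were covered to 67.2% at the 2-cell stage and to 80.8% in blastocysts. This coverage goes with their choice, since 6 of them were broad at the 2-cell stage and 8 in blastocysts.

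The domain broad in most lists was chrX:89972163-89976836 (4674 bp), with a peak of at least 3000 bp in 10 lists. The widest peak was 4005 bp in GV oocytes, 1894 bp in MII oocytes, 3747 bp at the 2-cell stage, 4321 bp at the 4-cell stage, 4084 bp at the 8-cell stage and 4016 bp at the 16-cell stage. It was 4109 bp in morulae, 4250 bp in in vivo morulae, 3698 bp in blastocysts, 4015 bp in in vivo blastocysts and 3266 bp at day 14. The MII oocyte list, the shortest of all, was the exception. The GV oocyte and 2-cell peaks were the widest of their lists.

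The domain at chrX:28504679-28508501 (3823 bp) was broad in all 9 embryo lists and kept nearly the same outline throughout. Its 9 broad peaks measured 3620 to 3736 bp, their starts lay within 133 bp of each other and their ends within 152 bp. GV oocytes had 3 narrower peaks covering 3239 bp of it, and MII oocytes 2 covering 835 bp. At chr17:35644709-35648576 (3868 bp), broad in 8 lists, starts were within 280 bp and ends within 292 bp, and the 8-cell list had 2 peaks there, the wider of 1461 bp. At chr16:55855021-55858497 (3477 bp), broad in 7 lists, they were within 272 and 286 bp. In domains this short, peaks of at least 3000 bp have edges near each other by construction.

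Long recurrent domains had looser outlines, for which their length leaves more room by construction. At chr3:8102237-8112144 (9908 bp), broad in 7 lists, starts of the broad peaks spread over 3001 bp and ends over 3734 bp. Coverage was 6694 bp in GV oocytes, 782 bp in MII oocytes, 7653 bp at the 2-cell stage, 9573 bp at the 4-cell stage, 9099 bp at the 8-cell stage and 9067 bp at the 16-cell stage. It was 9256 bp in morulae, 6383 bp in in vivo morulae, 7127 bp in blastocysts, 7741 bp in in vivo blastocysts and 9908 bp at day 14. This domain showed both the largest fall from GV to MII oocytes and the largest gain from MII oocytes to the 2-cell stage.

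The rule did not use edges to choose domains, but it limits them. Every broad peak measures at least 3000 bp and lies inside its domain, so edges in a short domain cannot lie far apart. Among 914 pairs of lists that were both broad in a domain, 43.0% had the start or the end of their widest peaks within 100 bp of each other, and 11.4% had both. The median distance was 257.5 bp at the start and 272.0 bp at the end. In domains broad in 5 or more lists the shares were 58.8% and 25.0%, and in those broad in 2 lists 34.5% and 5.75%. Regions with peaks of 2000 to 2999 bp in 2 lists shared an edge in 49.7% of 2121 pairs and both in 16.3%, and their widths differ less because the class has an upper limit. Pairs of the same domain share lists and are not independent.

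Where narrower peaks sat in the domains was measured in 20 equal bins, in domains that the list did not find broad. They lay more often in the middle than at the ends. At the 8-cell stage the middle 4 bins were covered in 46.9% of 835 domains and the outer 4 in 23.1%. At the 16-cell stage the values were 54.1% and 26.7% of 1253 domains, in in vivo morulae 61.6% and 31.9% of 1059, and at day 14 46.0% and 24.7% of 1076. The ratio of middle to outer was between 1.56 and 3.45 in the 11 lists. The ends of a domain are, by the way it was made, the outermost ends of the broad peaks.

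**Figure D5:**
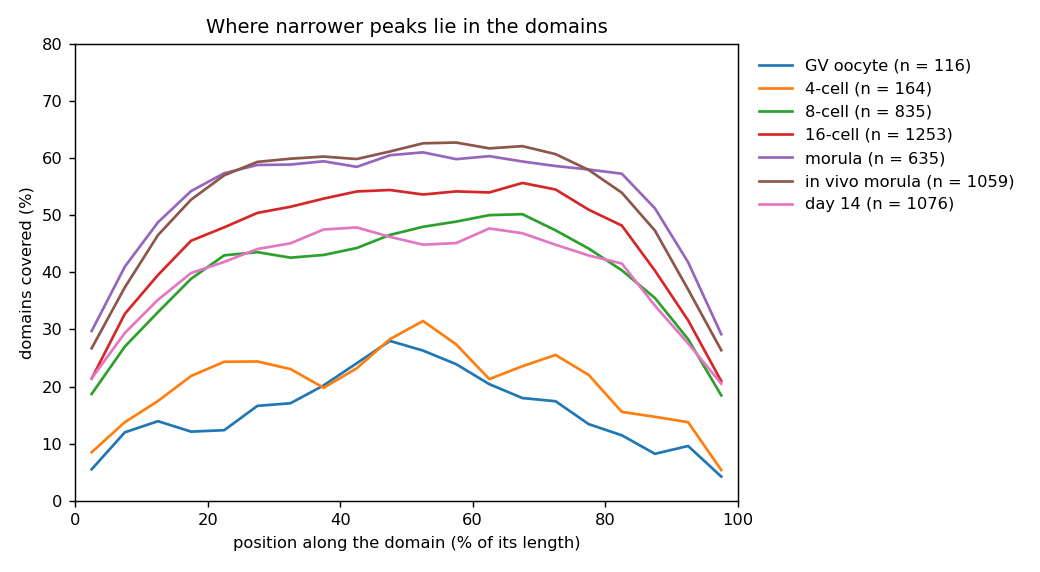
Percentage of domains covered by a peak at each position along the domain (0 to 100% of its length, 20 bins), for 7 lists with over 100 such domains each, leaving out for each list the domains broad in it. All 7 lines are lower at both ends than in the middle, from under 6% at the start for GV oocytes to about 60% in the middle for the morula lists.

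The surroundings of the domains were also dense in peaks. Within 20 kb on each side, leaving the domains out, each list had more peaks per Mb than outside the domains over the whole span. Flanks of narrower regions were not measured, so dense surroundings are not shown to be particular to the domains. The ratio was 1.96 in GV oocytes (95% Poisson interval 1.69 to 2.26, counting error only), 2.05 in MII oocytes, 2.82 at the 2-cell stage and 2.39 at the 4-cell stage. It was 2.97 at the 8-cell stage, 2.98 at the 16-cell stage, 3.19 in morulae, 3.67 in in vivo morulae, 3.88 in blastocysts (3.43 to 4.36), 4.00 in in vivo blastocysts (3.49 to 4.57) and 2.08 at day 14. The highest ratios were in the blastocyst lists, which held few of the domains, and in flanks of 100 kb the highest was that of in vivo morulae (2.29), with 1.99 in both blastocyst lists and the lowest, 1.66, in GV oocytes.

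Domains were less frequent near chromosome ends than joined regions in general, and as frequent there as slightly narrower regions. Within 5 Mb of the last position lay 101 domains (6.03%), 9.52% of all joined regions and 6.05% of the regions just under the width limit. Within 5 Mb of the first position it was 68 domains (4.06%), against 5.24% and 4.30%. The X chromosome held 42 domains (2.51%, against 1.67% of all joined regions and 2.36% of the regions just under the limit).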

How the data were processed

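ATAC-seq peaks of 56 cattle libraries were used as 11 lists, 1 per group, which the authors merged from the peaks of each group's libraries, per the series description. Per the submitters' processing notes, the tools were Bowtie2 2.3, HOMER, MACS2 and bedtools, and the build was UMD3.1. For the calling threshold, a shift of reads and the merging rule, the answer is not given in the sources used here. The deposited lists have 3 columns, chromosome, start and end, and were read as BED files. Starts are printed counting from 1 and may be off by 1 base, since the lists do not state how they count.

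Peaks of at least 3000 bp (end minus start) were joined across lists when they overlapped by 1 bp. Covered bases, peak number and widest peak were measured in each domain and list, with Python 3.11.15, numpy 2.4.6, pandas 2.3.3 and scipy 1.17.1. The script was tested on simulated data, and bedtools 2.31.1 gave the same 1674 domains and peak numbers in 11 of 11 lists. The background is all joined regions of the 11 lists. The last position in any list served as chromosome length.

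Regions named are the 10 longest domains, those with the widest peak of each list, the 5 founded by most lists, those with the largest gain and fall in covered bases at each step, the one with most peaks and those nearest the width limit. Of these, the ones most telling of each course are given in the text. Domains of the runs on chromosomes 17 and 29 and other recurrent ones were added after their values were seen. The members and lists were chosen with earlier results of these data known. Alternatives were other founding widths, joining of near peaks, stricter overlaps, leaving out lists, and other flanks, tolerances and end distances. Gene context and sequences were not analysed here, since the reference at hand is of another assembly.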

Additional observations from a re-analysis of the deposited data

How the results depend on the processing

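No paired analysis was possible because each group has 1 merged list, so the replicate letters that the labels share across groups mark no separate values, and leaving out single libraries was not possible for the same reason. The values below are those that left the 95% counting interval of the value reported or, for counts and in vivo ratios, changed by more than 1.5 times or crossed 1. A share of covered bases is no count, and its interval was taken as if it were a share of the domains. For covered bases it is only a working limit and measures no spread.

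The number of domains was 3327 at a founding width of 2500 bp, 477 at 4000 bp, 6197 after joining peaks of a list under 500 bp apart, and 1095 without the morula list. Leaving out any of the other 10 lists kept it within 1.5 times.

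At 2500 bp the share of domains with a peak was 81.6% at the 16-cell stage, 90.8% in morulae, 85.4% in in vivo morulae and 86.2% at day 14. At 4000 bp it was 8.60% in GV oocytes, 2.31% in MII oocytes, 6.71% at the 2-cell stage and in blastocysts, 13.8% at the 4-cell stage, 72.1% at the 8-cell stage, 89.5% at the 16-cell stage, 95.2% in morulae, 92.0% in in vivo morulae, 7.97% in in vivo blastocysts and 90.8% at day 14. Covered bases at 4000 bp were 3.18% at the 2-cell stage, 4.62% at the 4-cell stage, 39.9% at the 8-cell stage, 46.6% at the 16-cell stage, 76.4% in morulae, 4.30% in blastocysts and 4.99% in in vivo blastocysts. The share kept at 4000 bp was 24.4% from GV to MII oocytes, 84.4% from 2 to 4 cells, 99.4% from 8 to 16 cells, 6.39% from morula to blastocyst and 8.43% between the in vivo lists.

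After joining peaks under 500 bp apart, the share with a peak was 5.84% in GV oocytes, 3.42% at the 2-cell stage, 7.02% at the 4-cell stage, 45.6% at the 8-cell stage, 58.8% at the 16-cell stage, 68.4% in morulae, 58.6% in in vivo morulae, 2.23% in blastocysts, 2.50% in in vivo blastocysts and 92.9% at day 14. Covered bases were 0.865% in GV oocytes, 0.932% at the 2-cell stage, 1.56% at the 4-cell stage, 20.5% at the 8-cell stage, 24.1% at the 16-cell stage, 41.4% in morulae, 29.6% in in vivo morulae, 1.40% in blastocysts, 1.37% in in vivo blastocysts and 72.9% at day 14. The share kept was 9.39% from GV to MII oocytes, 83.4% from 4 to 8 cells, 91.9% from 8 to 16 cells, 93.4% from 16 cells to the morula and 4.13% between the in vivo lists. The in vivo to unlabelled ratio of covered bases in blastocysts turned from 1.22 to 0.974, and the cause was not tested. The alternatives of this ratio were chosen after seeing the data, and that of the morula lists stayed between 0.715 and 0.774.

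With peaks below the overall median width left out, the share with a peak was 5.02% in GV oocytes, 3.58% at the 2-cell stage, 8.72% at the 4-cell stage, 62.4% at the 8-cell stage, 79.5% at the 16-cell stage and 79.2% at day 14. Requiring 50% of the shorter of peak and domain to overlap moved none of 21 values. Over domains founded by the other 10 lists, the share with a peak was 62.8% at the 8-cell stage, 88.7% in morulae and 85.9% at day 14, and covered bases were 29.5%, 59.0% and 36.5%, with 52.1% in in vivo morulae. Over the same domains, and chosen after seeing the data, the share with 2 or more peaks among those with a peak was 49.8% at the 8-cell stage and 42.6% in morulae.

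In flanks of 5 kb the density ratio was 3.66 at the 2-cell stage, 3.24 at the 4-cell stage, 4.23 at the 8-cell stage, 4.07 at the 16-cell stage, 4.52 in morulae, 5.22 in in vivo morulae, 6.23 in blastocysts, 5.64 in in vivo blastocysts and 2.27 at day 14. In flanks of 100 kb it was 1.66 in GV oocytes, 1.96 at the 2-cell stage, 1.72 at the 4-cell stage, 1.93 at the 8-cell stage, 1.96 at the 16-cell stage, 2.06 in morulae, 2.29 in in vivo morulae, 1.99 in both blastocyst lists and 1.80 at day 14. A tolerance of 50 bp gave a shared edge in 26.5% of pairs and 250 bp in 67.6%. Within 1 Mb of the first and last position lay 0.836% and 1.85% of domains, and within 10 Mb 7.05% and 13.7%.

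Of 204 values recomputed, 107 stayed the same by these limits. Without read counts, depth cannot be set against any of them, and a missing peak does not show that a domain was closed. No gene was assigned and no sequence read, because the genome and annotation of the build used by the lists were not used here.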

Other observations

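Chromosomes differed in how many domains they held for their length. Chromosome 7 had 121 domains, 1.71 times the density over all chromosomes, followed by chromosome 19 (62, 1.54 times) and chromosome 5 (109, 1.43 times). Chromosome 27 had 12 (0.420 times) and the X chromosome 42 (0.449 times). Peaks of any width were also unevenly spread. Chromosome 7 held 7.23% of domains and 4.79% of all joined regions, chromosome 5 6.51% and 5.01%, chromosome 19 3.70% and 4.51%, chromosome 27 0.717% and 1.39%, and X 2.51% and 1.67%. The regions just under the width limit came to 5.43% on chromosome 7, 5.79% on chromosome 5 and 3.57% on chromosome 19. On chromosome 27 it was 0.893% and on X 2.36%. Chromosome 19 was thus low and X high against all joined regions, but both were near the regions just under the limit. The lists were broad in different shares of the domains by chromosome. Of all 1674 domains, 411 (24.6%) were broad at day 14 and 915 (54.7%) in morulae. On chromosome 19, 44 of 62 domains were broad at day 14 and 8 in morulae, and on chromosome 25 it was 20 and 2 of 23. On chromosome 9 the day 14 list was broad in 2 of 58 domains and the morula list in 50. These chromosomes were picked after their values were seen, and no test was made. The share of each list's own peaks on chromosomes 9, 19 and 25 was not measured.

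Of the 42 domains on X, 15 were broad at the 8-cell stage, 27 in morulae, 8 in in vivo morulae and 4 at day 14. The shares of all domains broad in these lists were 16.1%, 54.7%, 24.9% and 24.6%. At the 16-cell stage 6 of the 150 broad domains were on X. In the short lists it was 2 of 5 in GV oocytes, 2 of 8 at the 2-cell stage and 3 of 16 at the 4-cell stage. Blastocysts had 2 of 13 there and in vivo blastocysts 7 of 28. The day 14 list covered 31.1% of domain bases on X and 49.9% on the autosomes, and the in vivo morula list 40.4% and 57.5%. The morula list covered 74.3% and 73.8%. The X also held 1.02% of all day 14 peaks, 2.17% of in vivo morula peaks and 4.26% of morula peaks, so these whole lists differed there in the same direction. Each of the other lists covered more of the domain bases on X than on the autosomes. The shares were 52.3% and 35.6% at the 8-cell stage, 46.8% and 43.1% at the 16-cell stage, and 15.3% and 2.92% at the 4-cell stage. In GV oocytes they were 9.65% and 1.26%, in blastocysts 11.6% and 2.35% and in in vivo blastocysts 19.7% and 2.72%. These lists held 2.88% to 10.7% of their peaks on X. The sex of the pooled embryos is not given.

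Some domains lay near each other, which was not set against regions of other widths. With a gap of less than 100 kb as the limit, 995 stood alone and 679 fell into 263 groups. The largest group held 10 domains on chromosome 5 from position 57364916 to 57777519. All 10 had 16-cell, morula, in vivo morula and day 14 peaks, and 9 had an 8-cell peak. None had a peak in the blastocyst list. The GV oocyte, 2-cell and in vivo blastocyst lists had a peak in 1 domain each and the 4-cell list in 2. On chromosome 23, 9 domains lay from position 31455586 to 31686795, with peaks in all 9 from the 8-cell stage to the morula and at day 14, and none before the 8-cell stage or in either blastocyst list. This is also the usual state. Of all domains, 66.0% to 92.6% had a peak in each list from the 8-cell stage to the morula, and 88.8% at day 14. An oocyte peak was lacking in 92.5% and a peak of the blastocyst list in 96.1%. On chromosome 29, 4 domains from position 30225155 to 30290454 had a peak in all 11 lists, as had 17 of all domains (1.02%). One of them, at chr29:30260332-30266193 (5862 bp), was covered whole by 1 blastocyst peak, over 2594 bp in in vivo blastocysts and over 302 bp in GV oocytes.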
